A study of Xenopus laevis with 32 samples.

Results

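The 10 genes described here are the myogenic and satellite cell transcription factors of Xenopus laevis tails: pax7, myf5, myod1, myog and myf6, each present as an L and an S homeolog. They were chosen by symbol, as every gene whose identifier without its .L or .S ending is 1 of these 5 names. All 10 were found, out of 29303 genes listed in either raw table and 27467 listed in both. Bulk RNA was measured in amputated tails at 0, 0.5, 6 and 72 h after the cut, in a refractory and in a regeneration period. In Xenopus the refractory period is the window of tadpole development when tails fail to grow back after a cut. The 8 groups were refractory tails at 0, 0.5, 6 and 72 h and regeneration tails at the same 4 times, each with 4 libraries lettered A to D and each library from 20 embryos.

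No genotype, strain or drug is named for any group. All embryos came from eggs of females given human chorionic gonadotropin and were kept in saline with gentamycin. The RNA extraction protocol states the regenerative stage for all samples, so the period is taken from the condition label, and the stage of the refractory embryos could not be checked. No group of uncut tails was analysed here, so a difference between 72 h and 0 h includes whatever normal development does over those hours. In pooled tissue, fewer cells of a type and less RNA per cell cannot be told apart. The labels speak of biological repeats but do not say whether repeats came from separate clutches.

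Skeletal muscle is built by a small set of transcription factors that act in sequence. Pax7, a paired box factor, marks satellite cells, the stem cells that lie along muscle fibres, and satellite cells are the known source of new muscle in the regrowing tadpole tail. Myf5 and MyoD, both basic helix-loop-helix factors, commit cells to the muscle lineage. Myogenin, of the same family, drives differentiation into fibres in the mouse, and Myf6, also called MRF4, is the family member known for its expression in differentiated fibres. Pax7 is also known from the dorsal neural tube and the neural crest, so its RNA in a whole tail is not muscle RNA alone. The L and S copies stem from the genome duplication of this allotetraploid frog. In the RefSeq gene order, myf6 and myf5 are direct neighbours on chromosomes 3L and 3S, myod1 lies on 4L and 4S, myog on 2L and 2S and pax7 on 7L and 7S.

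Refractory libraries held 1868637 to 3567797 counts and regeneration libraries 2646237 to 4022871. Levels are given in CPM, the counts-per-million scale with library sizes adjusted by TMM, as mean ± SD of 4 libraries. All 10 genes passed the filter on low counts, with very different support: myod1.L had a median of 690.5 counts per library and myod1.S 404, myf6.S 86.5, pax7.L 55, pax7.S 49, myf5.L 35, myf6.L 18.5, myf5.S 16, myog.S 11 and myog.L 4.5. Tail identity was checked with 10 posterior genes (hox13 and related genes), which summed to 78.1 to 271 CPM in 27 libraries. Refractory 72 h A, regeneration 0 h A, regeneration 0.5 h A and regeneration 6 h B stood apart, with 46.9 to 67.6 CPM of these genes, 1139 to 1338 CPM of 19 head genes (495.5 to 1068 in the 27) and 3406 to 3512 CPM of 13 liver, pancreas and gut genes (1424 to 2936 in the 27). These 4 and refractory 0.5 h A are the 5 libraries without a column in the authors' normalized tables, and the changes between 72 h and 0 h are given with and without them. The part of head or trunk tissue in those results was not tested.

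At 72 h, the changes that passed the test among these genes were decreases of the differentiation gene myf6.S in both periods and of the commitment gene myod1.L in the regeneration period. Against their own 0 h tails, regeneration tails at 72 h had 2 of 10 genes called lower and none higher, where 3.85% of all 21231 genes tested were called in either direction and 2.23% were called lower. Refractory tails at 72 h had 1 of 10 called lower, where 1.65% of all genes were called and 1.05% were called lower. A call is an adjusted p under 0.05 from edgeR's quasi-likelihood test with Benjamini-Hochberg adjustment over all genes of that contrast. The median log2 change of the 10 genes was -0.47 in regeneration tails and 0.03 in refractory tails, beside 0.02 over all genes tested in each period.

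**Figure D1:**
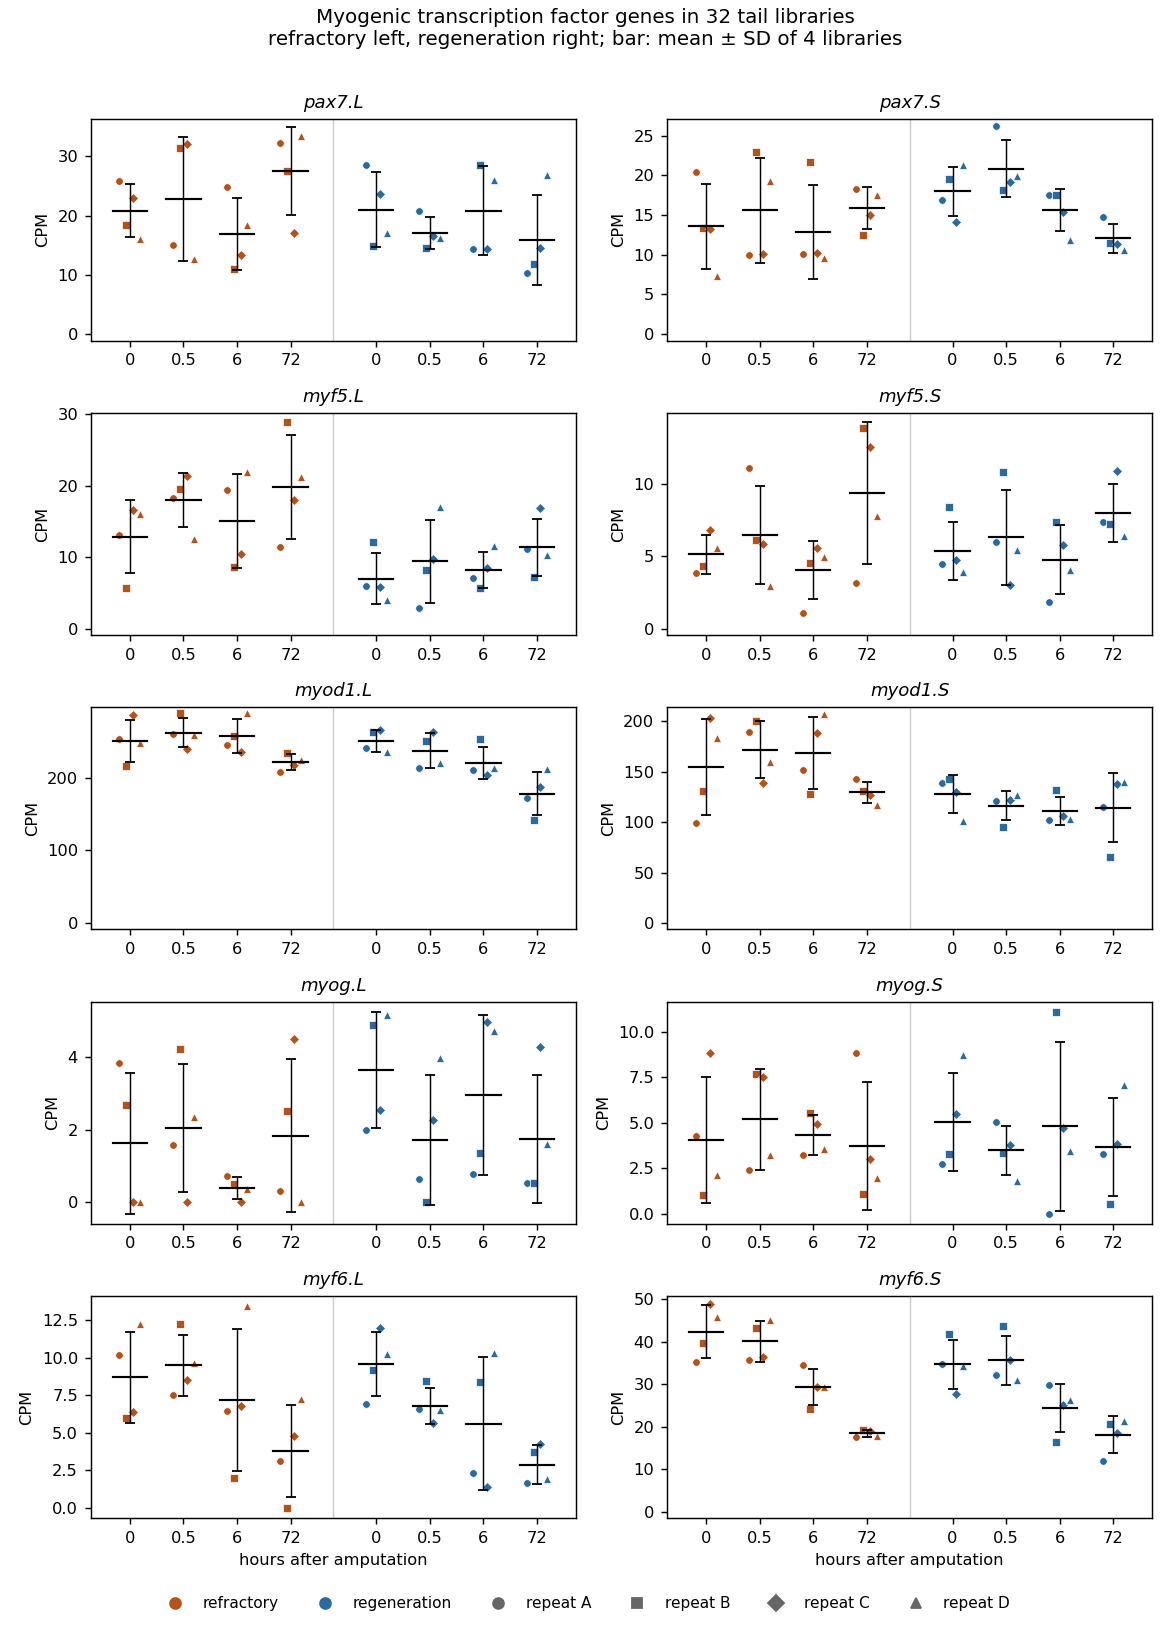
Level of each of the 10 genes in CPM (vertical axis) in all 32 libraries by hours after amputation, refractory tails on the left and regeneration tails on the right of each panel, with the mean and SD of 4 libraries. In the myf6.S panel both periods have their lowest mean at 72 h, where refractory tails averaged 18.4 CPM and regeneration tails 18.2 CPM. The 4 regeneration values of myod1.L at 72 h lie below those at 0 h.

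At the earlier times no member was called. At 0.5 h against 0 h, edgeR called 0 of 10 in refractory tails (0.132% of all genes) and 0 of 10 in regeneration tails (0.0612% of all genes), and no member had an unadjusted p under 0.05. At 6 h against 0 h, 0 of 10 were called in refractory tails (2.45% of all genes) and 0 of 10 in regeneration tails (0.273% of all genes), with myf6.S alone under an unadjusted p of 0.05 in each period. DESeq2 also called none in these 4 comparisons. Of all 27467 genes it called 36 in refractory and 20 in regeneration tails at 0.5 h, and 623 and 112 at 6 h. Of all 21231 genes tested, 924 in refractory and 637 in regeneration tails had an unadjusted p under 0.05 at 0.5 h. At 6 h these were 2491 and 1441. Few of all genes passed at these times, so 0 of 10 lies near the share over all genes. It does not set the members apart from other genes, and the intervals are wide for the sparsely counted ones.

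Pax7, the satellite cell factor, had no called change in either copy, and its means at 72 h lay on opposite sides in the periods. In refractory tails pax7.L averaged 20.8 ± 4.4 CPM at 0 h, 22.8 ± 10.4 at 0.5 h, 16.9 ± 6.1 at 6 h and 27.6 ± 7.4 at 72 h. In regeneration tails it averaged 21.0 ± 6.3 CPM at 0 h, 17.0 ± 2.7 at 0.5 h, 20.8 ± 7.5 at 6 h and 15.9 ± 7.5 at 72 h. The lowest and the highest of the 8 group means were thus both at 72 h, with regeneration lowest and refractory highest. Library by library at 72 h, pax7.L had 32.2, 27.5, 17.1 and 33.5 CPM in refractory tails and 10.4, 11.8, 14.5 and 26.9 CPM in regeneration tails. Regeneration library D lay among the refractory values, so the groups overlapped. The log2 difference between the periods at 72 h was 0.80 ± 0.33 (SE, 95% interval 0.15 to 1.45), with an unadjusted p of 0.0163 and an edgeR adjusted p of 0.248.

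The S copy of pax7 gave the same order of the periods at 72 h. It averaged 15.8 ± 2.6 CPM in refractory tails and 12.1 ± 1.8 CPM in regeneration tails at 72 h (SD, n = 4 each), a log2 difference of 0.39 (95% interval -0.28 to 1.07, edgeR adjusted p = 0.734). At 0 h the order was the other way, with 13.6 ± 5.3 CPM in refractory tails and 18.0 ± 3.1 CPM in regeneration tails. The change between 72 h and 0 h was 0.41 for pax7.L and 0.23 for pax7.S on the log2 scale in refractory tails, and -0.41 and -0.57 in regeneration tails. The periods' changes differed by 0.82 (95% interval -0.10 to 1.75, edgeR adjusted p = 0.706) for pax7.L and by 0.80 (95% interval -0.15 to 1.76, edgeR adjusted p = 0.736) for pax7.S. Neither difference passed the test, and both intervals include 0. Without the 5 libraries absent from the normalized tables, the changes were 0.32 for pax7.L and 0.15 for pax7.S in refractory tails and -0.23 and -0.61 in regeneration tails, and the difference for pax7.L shrank to 0.55. When each library was left out in turn, the change of pax7.L in regeneration tails ran from -0.78 to -0.22 and that of pax7.S in refractory tails from 0.02 to 0.49.

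Because Pax7 also belongs to the dorsal neural tube and neural crest, 18 genes of those tissues were summed beside it. They came to 700 to 770.5 CPM in refractory tails at 72 h, against 629.3 to 767.5 CPM at 0 h. In regeneration tails they came to 867.4 to 1035 CPM at 72 h, against 714.2 to 866.3 CPM at 0 h. The sum was therefore higher in regeneration than in refractory tails at 72 h in every library, while pax7.L had the higher mean in refractory tails. Its genes weigh unequally: over all libraries msx1.S had 25759 counts, msx1.L 9313 and tfap2a.L 8770, but sox10.S 1933 and wnt1.S 61. In refractory tails at 6 h the sum was 870.8 to 963.4 CPM. Whether it follows the amount of those tissues was not tested. Other lists at 72 h lay on the same side as pax7.L. The sum of 12 spinal cord and neuron genes was 638 to 858.8 CPM in refractory tails and 510 to 570.8 CPM in regeneration tails, and that of 7 pigment cell genes was 237.4 to 348.9 CPM in refractory tails and 157.6 to 214.9 CPM in regeneration tails, both without overlap. The 19 head genes came to 741.4 to 1283 CPM in refractory tails and 495.5 to 712.1 CPM in regeneration tails. The 13 liver, pancreas and gut genes came to 2199 to 3406 and 1424 to 1819 CPM, again without overlap. The 15 skeletal muscle genes came to 44910 to 63610 CPM in refractory and 28890 to 44420 CPM in regeneration tails, also without overlap. Refractory 72 h A, 1 of the libraries that stood apart, was the highest in each of these sums. Epidermis genes lay on the other side, at 453.2 to 529.5 CPM in refractory and 625.1 to 961.8 CPM in regeneration tails. The heart, notochord and posterior sums overlapped. The part of these tissues in the pax7 values was not tested.

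Myf5, a commitment factor, had no called difference between the periods or over time. Its L copy had the higher mean in refractory tails throughout. Myf5.L averaged 12.9 ± 5.0, 17.9 ± 3.8, 15.1 ± 6.6 and 19.9 ± 7.3 CPM at 0, 0.5, 6 and 72 h in refractory tails. Regeneration tails averaged 7.0 ± 3.6, 9.4 ± 5.8, 8.2 ± 2.5 and 11.4 ± 4.0 CPM at those times. All 4 refractory means lay above all 4 regeneration means, but single libraries overlapped at every time. The log2 difference, refractory over regeneration, was 0.85, 0.93, 0.88 and 0.80 at 0, 0.5, 6 and 72 h, with unadjusted p of 0.0487, 0.0297, 0.0383 and 0.0528. None passed after edgeR's adjustment, where the adjusted p ran from 0.412 to 0.569. The 4 comparisons use separate libraries but set the same periods against each other in a shared fit. Anything else that differed between the periods is common to all 4. Myf5.S, with fewer counts, gave log2 differences of -0.08, 0.03, -0.23 and 0.22 at those times, so the S copy did not show this offset. With both copies summed before the fit, the differences were 0.53, 0.63 and 0.57 at 0, 0.5 and 6 h (edgeR adjusted p = 0.715, 0.578 and 0.621).

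Over time, both myf5 copies had their highest mean at 72 h in both periods. At 72 h myf5.L had 11.4, 28.9, 18.0 and 21.2 CPM in refractory tails, against 13.2, 5.67, 16.7 and 16.1 CPM at 0 h. In regeneration tails it had 11.2, 7.24, 16.9 and 10.3 CPM at 72 h, against 5.96, 12.2, 5.82 and 3.95 CPM at 0 h. In both periods the groups overlapped, through the 72 h library A in refractory tails and the 0 h library B in regeneration tails. The log2 changes were 0.63 (95% interval -0.19 to 1.44) in refractory and 0.69 (-0.15 to 1.53) in regeneration tails for myf5.L, and 0.86 (-0.26 to 1.98) and 0.56 (-0.54 to 1.66) for myf5.S. None of these 4 changes was called by edgeR, with adjusted p between 0.496 and 0.744. In the 27 libraries of the normalized tables they were 0.81 and 0.60 for myf5.L and 1.14 and 0.47 for myf5.S, in refractory and regeneration tails.

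MyoD, the other commitment factor, was the most deeply counted gene here and gave the narrowest intervals. Myod1.L at 72 h had 172, 141, 188 and 212 CPM in regeneration libraries, against 241, 262, 265 and 235 CPM at 0 h. All 4 libraries at 72 h lay below all 4 at 0 h, as did those of 10.8% of all genes tested in one direction or the other. Its log2 change was -0.50 ± 0.12 (SE, 95% interval -0.73 to -0.26, edgeR adjusted p = 0.0047), which is 0.709 times the 0 h level. Without the 5 libraries that the normalized tables lack, the change was -0.52 (adjusted p = 0.00106). Without regeneration 72 h B, the lowest library, it was -0.39 and no longer passed (adjusted p = 0.0841). With the counts of both copies summed it was -0.37 and did not pass either (adjusted p = 0.0523). Over the 16 alternatives the adjusted p ran from 0.000518 to 0.0841.

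In refractory tails myod1.L had 208, 234, 218 and 225 CPM at 72 h, against 253, 216, 286 and 248 CPM at 0 h. Library B at 0 h lay within the 72 h range. The log2 change was -0.18 (95% interval -0.42 to 0.06) and was not called (edgeR adjusted p = 0.682), and it was -0.16 without the 5 libraries. The difference between the periods' changes was 0.31 (95% interval -0.02 to 0.65, edgeR adjusted p = 0.655), so the change in regeneration tails was not shown to differ from that in refractory tails. Directly compared at 72 h, refractory tails averaged 221 ± 11 CPM and regeneration tails 178 ± 30 CPM, with an unadjusted p of 0.010 and an edgeR adjusted p of 0.194.

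Myod1.S did not follow with a called change. At 72 h it averaged 129 ± 11 CPM in refractory tails, against 154 ± 48 CPM at 0 h, and 114 ± 34 CPM in regeneration tails, against 128 ± 19 CPM at 0 h. Its log2 changes were -0.25 (95% interval -0.64 to 0.13) in refractory and -0.17 (-0.55 to 0.22) in regeneration tails, and -0.31 and -0.13 without the 5 libraries. Between the periods, myod1.S stood higher in refractory tails in the first hours. At 0.5 h it had 190, 200, 138 and 160 CPM in refractory tails and 121, 94.8, 122 and 127 CPM in regeneration tails, without overlap, as for 6.27% of all genes. At 6 h it had 152, 128, 188 and 207 CPM in refractory tails and 103, 131, 106 and 104 CPM in regeneration tails, overlapping through refractory and regeneration library B. The log2 differences were 0.57 ± 0.19 at 0.5 h and 0.61 ± 0.19 at 6 h, with unadjusted p of 0.00469 and 0.00265 and edgeR adjusted p of 0.178 and 0.104. With only the groups compared in the fit, both passed (adjusted p = 0.0375 and 0.0465), and DESeq2 called the difference at 6 h (adjusted p = 0.0497). Over the 15 alternatives run for each, the adjusted p lay between 0.0375 and 0.464 at 0.5 h and between 0.0465 and 0.351 at 6 h. For myod1.S the periods' changes from 0 h differed by 0.31 (95% interval -0.24 to 0.85) at 0.5 h. At 6 h they differed by 0.34 (-0.20 to 0.89), and both intervals include 0.

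Myogenin, the differentiation factor, was too sparsely counted to follow. Myog.L had no count in 6 of 32 libraries and myog.S in 1. Myog.L averaged 1.62, 2.04, 0.394 and 1.83 CPM at 0, 0.5, 6 and 72 h in refractory tails, with SDs of 1.93, 1.75, 0.303 and 2.10. Regeneration tails averaged 3.64, 1.72, 2.95 and 1.74 CPM, with SDs of 1.60, 1.78, 2.19 and 1.76. In several groups the SD was about as large as the mean. At 6 h the 4 refractory libraries held 4 myog.L counts together and the 4 regeneration libraries 40, of which C and D held 18 and 15. Their ranges did not overlap, as for 6.52% of all genes, but nearly met. The highest refractory library had 2 counts (0.719 CPM) and the lowest regeneration library 3 counts (0.786 CPM). The fitted log2 difference of -2.82 had a 95% interval from -5.48 to -0.16, an unadjusted p of 0.0377 and an edgeR adjusted p of 0.444.

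Myog.S stayed between group means of 3.48 and 5.19 CPM. Its log2 change between 72 h and 0 h was -0.08 (95% interval -1.66 to 1.49) in refractory and -0.45 (-1.98 to 1.09) in regeneration tails. Both intervals hold a log2 change of 1 in either direction, so at this depth neither a rise nor a fall of that size could be told from none. With the 27 libraries of the normalized tables, myog.S was at -0.96 in refractory and -0.66 in regeneration tails, and myog.L at 0.49, against 0.15 with all libraries, and at -1.24, against -1.03.

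Myf6, the factor of differentiated fibres, gave the decrease that was called in both periods. In refractory tails myf6.S averaged 42.4 ± 6.2, 40.1 ± 4.8, 29.4 ± 4.2 and 18.4 ± 0.8 CPM at 0, 0.5, 6 and 72 h. In regeneration tails it averaged 34.7 ± 5.8, 35.7 ± 5.7, 24.4 ± 5.7 and 18.2 ± 4.3 CPM. The level thus lay lower at 6 h than at 0.5 h, and lower again at 72 h, in both periods. At 6 h the log2 changes from 0 h were -0.53 ± 0.24 in refractory and -0.50 ± 0.23 in regeneration tails (edgeR adjusted p = 0.335 and 0.669), and neither was called. The 4 refractory libraries at 6 h, at 24.2 to 34.5 CPM, all lay below those at 0 h, as for 7.97% of all genes.

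At 72 h, myf6.S had 17.7, 19.3, 18.9 and 17.9 CPM in refractory tails, against 35.2, 39.7, 49.0 and 45.8 CPM at 0 h. The groups were far apart, and the 72 h libraries were nearly equal. The log2 change was -1.20 ± 0.24 (SE, 95% interval -1.68 to -0.72, edgeR adjusted p = 0.0015), or 0.435 times the 0 h level. In regeneration tails myf6.S had 12.0, 20.6, 18.5 and 21.5 CPM at 72 h, against 34.8, 41.9, 27.6 and 34.4 CPM at 0 h, again without overlap. There the log2 change was -0.94 ± 0.24 (95% interval -1.41 to -0.46, edgeR adjusted p = 0.00931), or 0.522 times the 0 h level. Non-overlap at 72 h was found for 5.93% of all genes in refractory tails and for 10.8% in regeneration tails.

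The decrease of myf6.S in refractory tails was called in all 16 alternative edgeR and DESeq2 fits, with adjusted p from 1.29e-05 to 0.0103. In regeneration tails it did not pass without 72 h A (adjusted p = 0.0872) or without 0 h B (0.0566), and over its 16 alternatives the adjusted p ran down to 0.000546. Without the 5 libraries absent from the normalized tables, the changes were -1.19 (adjusted p = 0.000981) in refractory and -0.95 (0.00738) in regeneration tails, while the number of all genes called grew to 747 and 1111, against 350 and 818 with all libraries. The periods' changes differed by -0.26 (95% interval -0.94 to 0.41, edgeR adjusted p = 0.936), and that interval includes 0.

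Myf6.L, with a median of 18.5 counts per library, had point estimates of the same sign. At 72 h it had 1.63, 3.75, 4.28 and 1.92 CPM in regeneration tails, against 6.95, 9.20, 12.0 and 10.3 CPM at 0 h. These did not overlap, as for 10.8% of all genes. The log2 change was -1.70 ± 0.60 (95% interval -2.89 to -0.50) and did not pass (edgeR adjusted p = 0.105). In refractory tails it had 3.16, 0, 4.80 and 7.25 CPM at 72 h, against 10.2, 6.01, 6.37 and 12.2 CPM at 0 h, where library D overlapped. The log2 change there was -1.17 (95% interval -2.35 to 0.02, edgeR adjusted p = 0.498). Without the 5 libraries absent from the normalized tables, the changes of myf6.L were -1.09 in refractory and -1.83 in regeneration tails (edgeR adjusted p = 0.483 and 0.0611). With the counts of both copies summed before the fit, myf6 was called lower in refractory tails (-1.19, adjusted p = 0.00056) and in regeneration tails (-1.07, adjusted p = 0.000577).

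**Figure D2:**
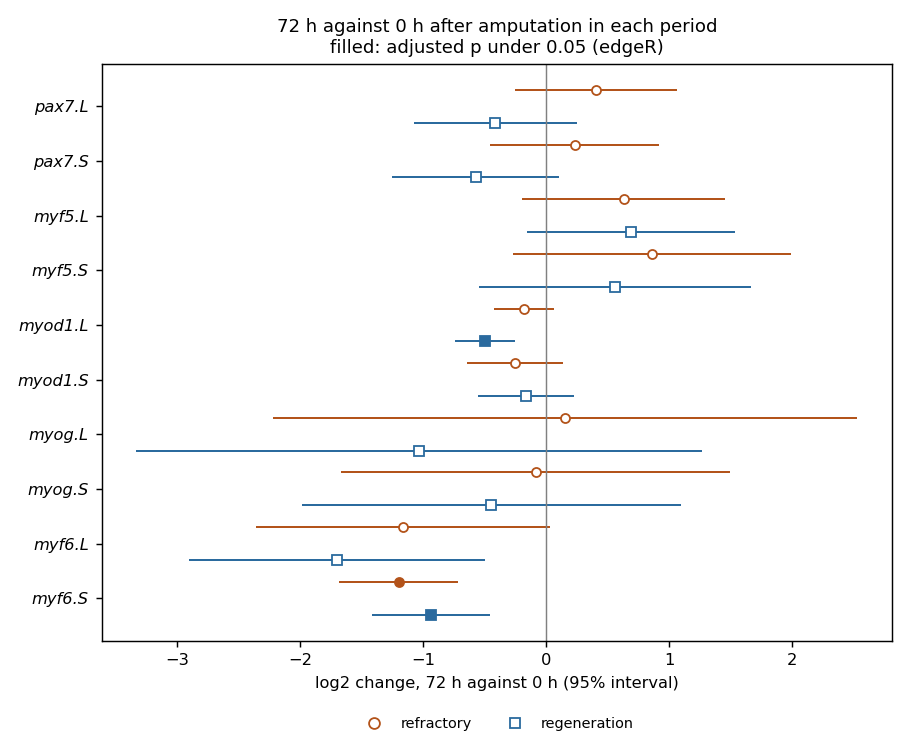
Log2 change at 72 h against 0 h (horizontal axis) with its 95% interval for each gene, refractory tails above regeneration tails, filled where edgeR's adjusted p was under 0.05. The filled points are myf6.S in both periods and myod1.L in regeneration tails, and the myog intervals are the widest.

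Set against each other at the same time, refractory and regeneration tails did not differ by a called change in any of these genes. EdgeR called 0 of 10 at 0 h, 0.5 h, 6 h and 72 h, where 0.669%, 1.18%, 1.83% and 1.51% of all genes were called. At an unadjusted p under 0.05 there were 1, 2, 3 and 2 of the 10, beside 1848, 1947, 2117 and 2633 of all 21231 genes. DESeq2 called 0 of 10 at 0 h, 0.5 h and 72 h, where it called 192, 331 and 570 of all 27467 genes. At 6 h it called 1, myod1.S, beside 487 of all 27467 genes. The difference between the periods' changes was called for 0 of 10 at 0.5, 6 and 72 h (0%, 0.0612% and 0.466% of all genes). DESeq2 called none either, beside 0, 43 and 184 of all 27467 genes. For that difference, an unadjusted p under 0.05 was met by 0 of 10 at each time and by 706, 1226 and 1748 of all genes. At 72 h all 10 point estimates of refractory over regeneration tails lay above 0, from 0.02 to 0.80, with a median of 0.27. Those of myf6.S, myog.S and myog.L were only 0.02, 0.03 and 0.05. Over all genes that median was -0.01. Other muscle genes leaned to the same side in this comparison. Above 0 were 36 of 41 contractile and fibre genes (median 0.41) and 11 of 14 fusion and synapse genes (0.22). So were 33 of 48 progenitor and satellite cell genes (0.27) and 29 of 42 partners and inhibitors (0.20). The side was thus not particular to the 10 genes.

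**Figure D3:**
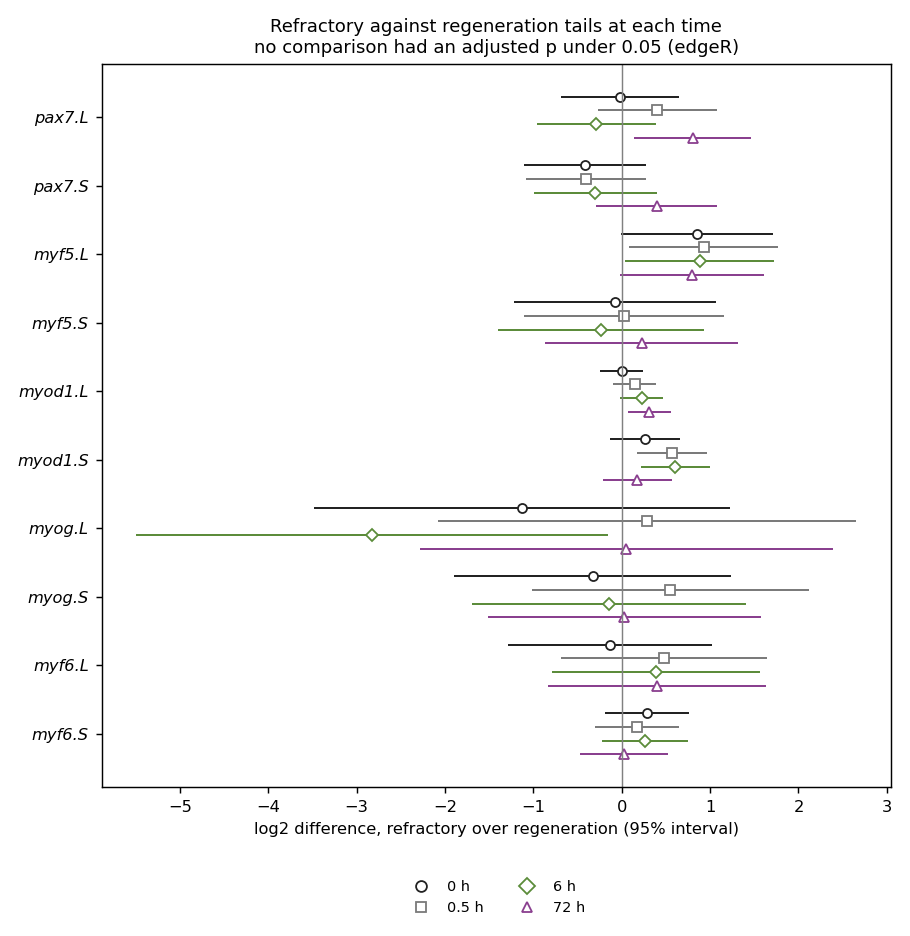
Log2 difference of refractory over regeneration tails (horizontal axis) with its 95% interval at 0, 0.5, 6 and 72 h for each gene. The 4 myf5.L estimates lie between 0.80 and 0.93, and the myod1.S estimates at 0.5 h and 6 h are 0.57 and 0.61, yet none passed the adjusted test.

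The means of a gene in the 8 groups could be ordered, but the libraries of neighbouring groups overlapped. For each of the 10 genes the groups were put in order of their means, which gives 7 neighbouring pairs a gene. In 0 of these 70 pairs were the library ranges apart. Neighbours in such an order have the closest means, and the same count over all genes was not made. The 0 of 70 therefore does not set the members apart from other genes. The highest mean was 1.47 times the lowest for myod1.L, 1.49 for myog.S, 1.55 for myod1.S, 1.73 for pax7.S, 1.74 for pax7.L, 2.32 for myf5.S, 2.34 for myf6.S, 2.85 for myf5.L, 3.32 for myf6.L and 9.22 for the sparsely counted myog.L. Regeneration 72 h was the lowest group for pax7.L, pax7.S, myod1.L, myf6.L and myf6.S. Refractory 72 h was the highest for pax7.L, myf5.L and myf5.S.

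The homeologs of a pair took unequal shares of its reads. Over all libraries the L copy held 56.4% of pax7 counts, 66.5% of myf5, 63.2% of myod1, 33.4% of myog and 18.1% of myf6 counts. Transcript length was not accounted for, and how reads that match both copies were assigned is not stated, so these are shares of reads. The share of myod1.L was the steadiest, between 55.6% and 72.6% in single libraries. Myf6.L never exceeded 33.8%, so most myf6 reads were of the S copy in every library.

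Between the periods, the L share of summed myf5 counts was 72.2% in refractory and 59.4% in regeneration tails. By group it averaged 69.8, 74.5, 76.8 and 69.4% at 0, 0.5, 6 and 72 h in refractory tails and 55.4, 56.8, 64.2 and 58.1% in regeneration tails. This is the myf5.L offset described above, seen as a share, and no separate evidence for it. The L share of pax7 was 60.2% in refractory and 53.0% in regeneration tails, and that of myod1 61.2% and 65.1%. These shares were not tested.

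**Figure D4:**
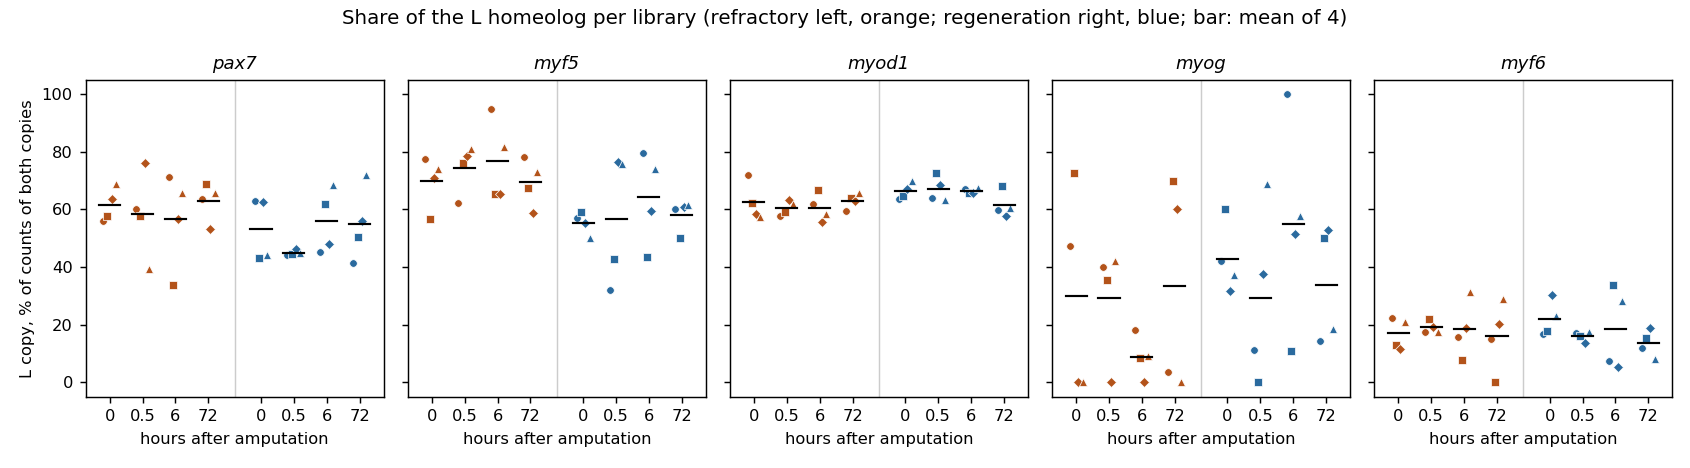
Share of the L homeolog in the counts of each pair, in percent (vertical axis), per library and by hours after amputation, with the mean of 4 libraries. Myf6 stays under 33.8% and myod1 between 55.6% and 72.6%, while myog, with few counts, ranges from 0 to 100%.

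Across the 32 libraries the copies of a pair went together to different degrees. Pearson's r between log2 CPM of the L and S copies was 0.65 for myod1, 0.56 for myf6, 0.24 for myf5, 0.02 for pax7 and -0.0029 for myog. Spearman's rho was 0.51, 0.51, 0.28, -0.01 and -0.05 for the same pairs. These are descriptions over libraries that share groups, and the part of depth in them was not tested.

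Other genes known from the muscle programme were counted at 72 h for comparison, in lists that were not independent of earlier results of these data. Over all genes tested, 1.65% were called in refractory and 3.85% in regeneration tails at that time. Of 41 contractile and fibre genes tested, 25 fell and none rose in refractory tails (median log2 change -1.02), and 30 fell and none rose in regeneration tails (median -1.20). Among them tpm2.L, a tropomyosin of the thin filament, fell to 351 ± 28 CPM in regeneration tails at 72 h, against 697 ± 68 CPM at 0 h (log2 -0.99, edgeR adjusted p = 6.78e-10). In refractory tails tnnc2.S, the calcium-binding troponin C of fast fibres, fell to 140 ± 13 CPM, against 346 ± 97 CPM at 0 h (log2 -1.30, edgeR adjusted p = 1.18e-06). Whether the share called differs from that of the 10 factors, of which most had few counts, was not tested.

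Genes associated with muscle progenitors and satellite cells were counted in the same way. Of 48 tested, 1 rose and 2 fell in refractory tails (median log2 change -0.02), and 7 fell and none rose in regeneration tails (median -0.19). Those that fell in regeneration tails included itga7.L, a laminin receptor subunit of muscle (-1.59, edgeR adjusted p = 3.35e-06). In refractory tails cxcr4.S, a chemokine receptor, rose (1.23, adjusted p = 0.0336), while itga7.L (-0.83, adjusted p = 0.0441) and eya4.L, a transcriptional coactivator (-1.01, adjusted p = 0.0456), fell.

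Partners and inhibitors of the myogenic factors changed in both directions in regeneration tails. Of 42 tested, 3 rose and 5 fell there (median log2 change -0.14), and 1 rose and none fell in refractory tails (median -0.08), where 1 of 42 is near the share called over all genes. The MADS box partners mef2c.L (-0.84, edgeR adjusted p = 4.64e-05) and mef2a.L (-0.93, 0.00105) fell in regeneration tails, and the repressor gene prdm1.S rose (1.30, 0.000107). Tcf3.S, which encodes an E protein that pairs with the myogenic factors, rose in refractory tails (0.68, 0.0134). Of 14 myoblast fusion and neuromuscular synapse genes, none was called in refractory tails and 3 fell in regeneration tails (medians -0.23 and -0.64). The 3 were the acetylcholine receptor subunits chrnb1.L (-1.09, 1.71e-05) and chrnd.L (-1.38, 0.000412) and rapsn.S, which clusters the receptor (-1.51, 0.000133).

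**Figure D5:**
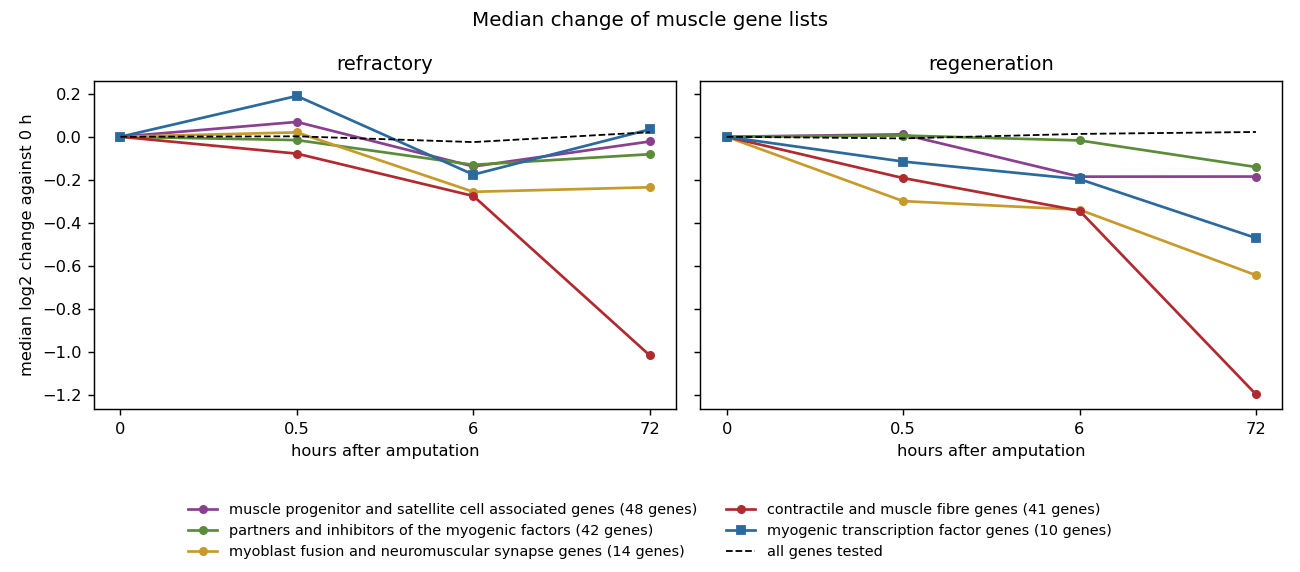
Median log2 change against 0 h (vertical axis) of the 10 myogenic factor genes, of 4 muscle gene lists and of all genes tested, at 0.5, 6 and 72 h, in refractory tails (left) and regeneration tails (right). At 72 h the contractile list lies at -1.02 and -1.20 and the 10 genes at 0.03 and -0.47.

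Several tissue marker lists moved beside the myogenic factors at 72 h. The summed level of 15 skeletal muscle marker genes, all detected, was 44910 to 63610 CPM in refractory tails at 72 h, against 75050 to 106600 CPM at 0 h. In regeneration tails it was 28890 to 44420 CPM at 72 h, against 65630 to 93000 CPM at 0 h. No library at 72 h reached the lowest library of its period at 0 h. The sum of 8 notochord genes was 3079 to 3827 CPM in refractory tails at 72 h, against 4489 to 5596 CPM at 0 h, and the 7 pigment cell genes came to 157.6 to 214.9 CPM in regeneration tails at 72 h, against 265.6 to 324.2 CPM at 0 h. Their part in the values of the 10 genes was not tested.

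Each gene was also divided by the summed counts of the 15 muscle markers in its own library, a scale added after the values were seen. Because that sum is lower at 72 h, a gene at an unchanged CPM would have a ratio of 72 h over 0 h of 1.67 in refractory and 2.25 in regeneration tails on this scale. A ratio over 1 therefore says only that a gene did not fall as far as the markers. Myod1.L in regeneration tails had a ratio of 1.57 and myf6.S 1.19 there, both between 1 and the ratio of an unchanged gene. Myf6.S in refractory tails had 0.741, a ratio under 1. It had 356 ± 61 counts-per-million of the marker sum at 72 h, against 481 ± 43 at 0 h (SD, n = 4 each). An exact permutation test gave p = 0.0286 for this, the smallest p possible with 4 against 4. After Benjamini-Hochberg adjustment over 20 such tests it was 0.0715, and 0 of the 20 passed. With p bounded at 0.0286, a gene could pass only if many of the other tests reached that bound too, and 8 of the 20 did. The adjusted test therefore cannot decide whether myf6.S fell beyond the markers, and such a fall was not shown. Pax7.L had a ratio of 2.14 in refractory and 1.60 in regeneration tails, and myf5.L 2.74 and 3.55. In the 27 libraries of the normalized tables, an unchanged gene would have 1.77 and 2.48, where myod1.L had 1.70 and myf6.S 1.31 in regeneration tails and myf6.S 0.795 in refractory tails.

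Finally, the genes whose level followed each member most closely over the 32 libraries were listed among 14922 genes. The closest to myod1.L was tmod4.S (Pearson's r = 0.85, Spearman's rho = 0.79), and the closest to myf6.S were mybpc3.L (0.83 and 0.81) and tmod4.L (0.82 and 0.80). For myod1.S it was pygb.S (0.80 and 0.73), for myf5.L ifitm1.L (0.72 and 0.69), for myf5.S cdh3.S (0.70 and 0.71) and for pax7.L qser1.L (0.72 and 0.75). For pax7.S, hoxa2.L came first (0.64 and 0.60), and for myog.L and myog.S the highest were cwf19l1.L (0.60 and 0.59) and dennd1a.S (0.63 and 0.47). Closest to myf6.L was LOC108696826 (0.72 and 0.71). Leaving out the 2 libraries farthest from the median of each member lowered Pearson's r for myod1.L to 0.72 and left that of mybpc3.L with myf6.S at 0.83. It was then 0.43 for dennd1a.S, 0.53 for hoxa2.L, 0.55 for cwf19l1.L and 0.59 for ifitm1.L. The values for cdh3.S, qser1.L, pygb.S and LOC108696826 were 0.64, 0.69, 0.72 and 0.73. Each gene was picked as the highest among 14922, and the libraries share groups and depth, so these values describe likeness and were not tested.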

How the data were processed

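RNA of 32 tail libraries was made with the Lexogen SENSE Total RNA-Seq kit from 100 ng of total RNA and sequenced as 2x76 bp reads, per the labels' protocols. Named in the submitters' processing notes are R 4.1.0, DESeq2 1.32.0, the aligner STAR 2.7.9a and the counter HTSeq 0.6.1p1, and the genome build is not given in the sources used here. The authors deposited raw read counts per gene, 1 table per period, which were used for all tests. Their deposited normalized tables hold a signal, the counts divided by a size factor, for 27 of the 32 libraries, used here as a check of levels. Columns were matched to samples by title. Each table also has an empty line, left out.

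The 27467 genes listed in both raw tables were analysed in R 4.3.3 with edgeR 4.0.16 (TMM, filterByExpr by group, glmQLFit with robust estimation, glmQLFTest) as a single model with a mean for each of the 8 groups. After filtering, 21231 genes remained, with 24 residual degrees of freedom and a biological coefficient of variation of 0.38. Benjamini-Hochberg adjustment ran separately in each of 13 contrasts. The SE is the log2 change divided by the square root of the F statistic, and intervals are at 95%. P-values measure the spread between samples as labelled. The fit was also run on simulated counts, with changes set in the better counted genes. The outcome is not given here, and that run does not speak to the sparsely counted members. Symbols were matched to RefSeq, where 29300 of 29303 identifiers and all 10 members matched a symbol. Neighbours and chromosomes are those of the RefSeq assembly Xenopus_laevis_v10.1, not of the files.

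The members and gene lists were chosen with earlier results of these data known. All 10 members are named. Other named genes are up to 3 called genes per list and contrast by smallest adjusted p, a selection of which is printed, and the genes of highest Pearson correlation with each member among genes of at least 5 CPM on average, on log2 CPM with a prior count of 2. Alternatives were DESeq2 1.42.0, RLE scaling, no count filter, the 27 libraries, only the groups compared, only the period's libraries, a replicate block, summed homeologs, and each library left out in turn.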

Additional observations from a re-analysis of the deposited data

Results flagged for a closer look

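A single library lay far from the other 3 of its group in 2 of 80 combinations of gene and group, where chance alone gives about 1 in 20. Pax7.S in refractory 6 h B was 21.6 CPM, while the other 3 libraries lay at 9.56 to 10.2 CPM, a gap of 0.948 of the group's range. Myod1.S in regeneration 6 h B was 131 CPM, while the other 3 libraries lay at 103 to 106 CPM, a gap of 0.877 of the range. Regeneration 6 h B is also 1 of the 4 libraries with high head and gut genes and few posterior genes, and the part of that in its myod1.S level was not tested.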

How the results depend on the processing

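Myf6.S in refractory tails was called whichever library was left out, while both calls in regeneration tails were lost without single libraries. The number of members called in regeneration tails at 72 h against 0 h was 1 to 2 when each library was left out in turn. It was 2 in refractory tails at 72 h with homeologs summed, where the myf6 pair stands for both copies. That fit called 303 of all 15812 genes. Refractory against regeneration gave 1 call at 0.5 h and 1 at 6 h with only the groups compared and 1 at 6 h with DESeq2, all myod1.S. Over all genes, those fits called 274 of 16572, 295 of 17211 and 487 of 27467. With homeologs summed, myod1 in regeneration tails at 72 h was -0.37 and lost its call (adjusted p = 0.0523). With only the groups compared, myf6.L there was -1.71 and passed (adjusted p = 0.0408). The cause was not tested.

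At 72 h against 0 h, signs turned for genes without a call under several alternatives. In refractory tails myog.L was -0.20 with the replicate block and -0.0046 with homeologs summed, and -0.81 to 0.94 over libraries left out, and myog.S was 0.0159 with the replicate block and -0.95 to 0.61 over libraries left out. Myod1.S in regeneration tails was -0.27 to 0.0297 over libraries left out. Dividing by the skeletal muscle markers, which were lower at 72 h, adds about 1.17 to the log2 value of every gene in regeneration and 0.74 in refractory tails, so a turn of sign there follows from the scale. It made the values positive for pax7.L (0.68), pax7.S (0.60), myod1.L (0.65), myod1.S (0.93), myog.L (0.0144), myog.S (0.65) and myf6.S (0.25) in regeneration tails and for myod1.L (0.58), myod1.S (0.53) and myog.S (0.56) in refractory tails. Myf6.S in refractory tails stayed negative at -0.43. Of the levels, only that of myf6.S at refractory 72 h moved by more than its SD, to 19.3 CPM with raw library totals.

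The letters A to D were not taken as pairs. Same-letter libraries of a period correlated at -0.153 to 0.197 (median 0.012), 1 of 48 pairs over 0.1. Different-letter libraries of a period correlated at -0.144 to 0.199 (median -0.002), 2 of 144 pairs over 0.1. However, 13 of 32 libraries correlated best with their own letter, more than the 1 in 4 that 4 letters give at random. These values do not show that no pairing exists. The replicate block called 877 genes in regeneration and 368 in refractory tails at 72 h, and the same members. The 5 libraries left out moved the count of all genes at refractory 72 h to 747 and at regeneration 6 h to 323, against 350 and 58. Depth limits myog most.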
